A study of Brassica napus with 3 samples.

Results

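Trimethylation of lysine 4 of histone H3 (H3K4me3) was followed along pseudochromosome 2 of the B. rapa reference in leaf chromatin of canola (Brassica napus), an allotetraploid whose A subgenome is related to B. rapa. All summits listed on that sequence were taken, by sequence name alone. They numbered 5820, of which 2716 came from the control line and 3104 from PEG1, out of 59136 summits on all 11 pseudochromosomes. A summit is the single position of highest signal in a peak, listed with a score on a −log10 scale of significance.

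The control line is called wild type in the protocol, and PEG1 is an epiline from a selection for energy efficiency and drought tolerance in the same background, L. spp. oleifera (Metzg) Sinsk. f. biennis. Leaf tissue of both came from plants 26 days old that had received no treatment, and the question of the series was how the selection altered the distribution of the mark. The ChIP was native: micrococcal nuclease (30 U for 10 minutes, from 1.5 g of tissue) released mononucleosomes, which were bound with 2.5 ug of an antibody against H3K4me3. The library made without antibody was not analysed here. Each line has 1 library, and the labels do not say how many plants went into it. Differences between the lines therefore have no replicate check and no test, intervals cover counting error only, and the read depth is unknown. Because C-subgenome reads may align to the B. rapa reference, A and C copies of a locus cannot be told apart.

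H3K4me3 is laid down by SET-domain methyltransferases of the COMPASS type on nucleosomes just downstream of transcription start sites. In plants it is largely a mark of transcribed genes in euchromatin, and it is scarce over transposon-rich heterochromatin around centromeres. A map of its summits is therefore read in the field as a map of active gene starts. No annotation of this build was used here, so regions are named by position on the BGI pseudochromosomes V1 of BR5307, counted from 1, and not by gene.

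Pseudochromosome 2 held 96.05 control and 109.8 PEG1 summits per Mb over the 28.3 Mb up to the last summit. Among the other numbered pseudochromosomes up to 10, control densities ranged from 88.5 to 119.7 per Mb and PEG1 densities from 103.6 to 134.5, and pseudochromosome 2 was 8th from the top of 11 in both lines. PEG1 had 388 more summits than the control, a ratio of 1.14 (95% exact interval 1.09 to 1.20). The ratio over all pseudochromosomes was also 1.14 (1.12 to 1.16). The median score was 14.4 in the control and 18.5 in PEG1, and both values were also the medians of the whole B. rapa lists.

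Marked and unmarked stretches alternated along the sequence, in the same places in both lines. Over 56 full windows of 500 kb the control held between 3 and 86 summits, with a median of 48.5, and PEG1 between 4 and 95, with a median of 55.5. The SD of these counts was 30.6% of the mean in the control and 30.4% in PEG1. The window counts of the lines had a Pearson correlation of 0.98 and a Spearman correlation of 0.97 over the 56 windows, a description of 2 lists whose libraries were aligned to the same sequence. It was also 0.98 without the nearly empty first window. PEG1 had more summits than the control in 55 windows and fewer in 1.

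**Figure D1:**
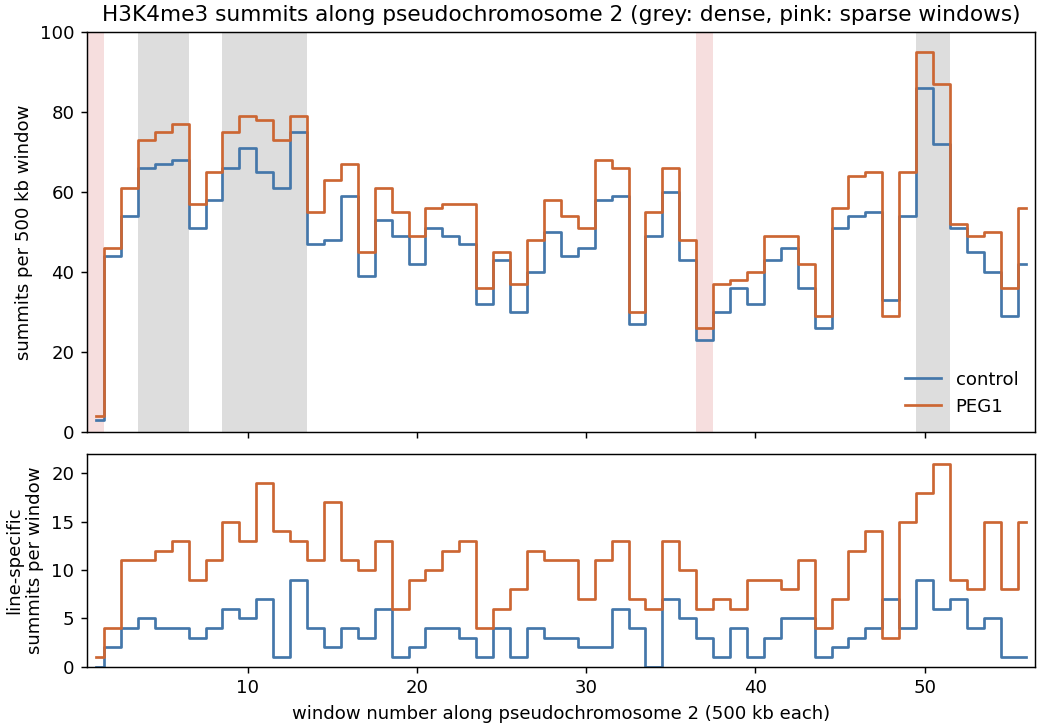
Summits per 500 kb window (upper panel) and line-specific summits, those over 500 bp from the other line, (lower panel) by window number along pseudochromosome 2, with the control in blue and PEG1 in orange; grey marks dense and pink marks sparse windows. The lines rise and fall together from 3 and 4 summits in the first window to 86 and 95 in the densest, and PEG1 lies below the control in 1 window.

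Dense stretches were defined as at least 2 neighbouring windows holding at least 130 summits of both lines together, against a median window of 104. There were 3, and 2 of them lay in the first 6.5 Mb. The first ran from 1500001 to 3000000, with 201 control and 225 PEG1 summits, 134 and 150 per Mb. The second, the longest at 2.5 Mb, ran from 4000001 to 6500000 and held 338 control and 384 PEG1 summits. The third lay near the opposite end, from 24500001 to 25500000, and was the densest, with 158 control and 182 PEG1 summits per Mb. Together the 10 dense windows made up 17.9% of the full windows and carried 25.8% of the control and 25.7% of the PEG1 summits.

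The densest single window ran from 24500001 to 25000000, with 86 control and 95 PEG1 summits. It was followed by its neighbour from 25000001 to 25500000 (72 and 87), by 6000001 to 6500000 (75 and 79), by 4500001 to 5000000 (71 and 79) and by 2500001 to 3000000 (68 and 77). The control and PEG1 do not order the second and the third of these alike, since the control held 3 more summits from 6000001 to 6500000 than from 25000001 to 25500000 and PEG1 held 8 fewer. Summits in the dense windows lay close together, which follows from the choice of windows by count. From 24500001 to 25500000 the median distance of neighbours was 4463 bp for the control and 3821 bp for PEG1.

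Between the dense stretches the mark was thinner, most of all in the middle of the sequence. In blocks of 5 Mb the control had 109.6 and 107.6 summits per Mb in the first and second block, 86.4 and 83.4 in the third and the fourth, 96.8 in the fifth and 90.6 in the shorter last block. PEG1 followed with 122.4, 125, 99.8, 94.8, 108.6 and 107.1 per Mb. The block from 15000001 to 20000000 was thus the thinnest in both lines. The rise from the fourth block to the last block was from 83.4 to 90.6 per Mb in the control and from 94.8 to 107.1 in PEG1.

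Sparse windows, with at most 52 summits of both lines together, numbered 2. One was the first window and the other ran from 18000001 to 18500000, with 23 control and 26 PEG1 summits. Just above that threshold stood the windows from 21500001 to 22000000 (26 control and 29 PEG1 summits), from 16000001 to 16500000 (27 and 30) and from 23500001 to 24000000 (33 and 29). These 5 least marked windows lay, apart from the first, between 16 and 24 Mb.

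The start of the pseudochromosome was nearly free of the mark in both lines. In the first 500 kb the control had 3 summits (95% Poisson interval 0.619 to 8.77) and PEG1 had 4 (1.09 to 10.2). The first 500 kb of the other 10 pseudochromosomes held 47 to 88 control and 44 to 100 PEG1 summits. The first summit stood at 303935 in the control and at 303922 in PEG1, whereas on every other pseudochromosome it stood between 481 and 24062 in the control and between 499 and 15596 in PEG1. Peak numbers ran on without a break through the summits of the pseudochromosome in both lists, so no numbered peak was missing from the lists there. Whether sequence that reads could align to was present there was not tested.

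The few summits of that stretch ranged from strong to very weak. The control summit at 303935 scored 36.01, at the 91.96th percentile of the control scores on the pseudochromosome, and the PEG1 summit 13 bp away scored 38.5, at the 85.8th. At 332800 both lines had a summit on the same base, with a score of 18.6 in the control and 36.5 in PEG1. The third control summit, at 336485, had its nearest PEG1 summit 422 bp away at 336907, and the third PEG1 summit, at 335704, scored 2.61, at the 2.30th percentile of the PEG1 scores, and lay 781 bp from a control summit.

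This marked island of 3 to 4 summits was followed by a second empty stretch that ended at 587326 in the control and 587337 in PEG1. Marking then increased, with a dip in between. In successive bins of 100 kb from the start of the second window on, the control held 1, 8, 5 and 16 summits, and PEG1 held 1, 10, 4 and 17. Counted back from the last summit of either line, the last 500 kb held 33 control and 40 PEG1 summits. The 500 kb from the first summit of each line held 17 and 19. The length of the sequence beyond the last summit was not known. Counted back from the last summit, the other pseudochromosomes held 12 to 79 control and 13 to 95 PEG1 summits in their last 500 kb. Both minima were on pseudochromosome 11, and the lowest counts up to pseudochromosome 10 were 25 and 26.

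Spacing within each list was short for most summits and long for a few. The median distance between neighbours was 6482 bp for the control (interval 5992 to 6843) and 5639 bp for PEG1 (5363 to 5909). In the control 25% of the 2715 distances were below 2958 bp and 25% above 13337 bp, and in PEG1 the quartiles of 3103 distances were 2665 and 11383 bp. The medians ranged from 5288 to 7680 bp on the other pseudochromosomes in the control and from 4737 to 6680 bp in PEG1. Both widest medians were on pseudochromosome 11, and those up to pseudochromosome 10 reached 6864 and 5928.5 bp. Pseudochromosome 2 stood 3rd from the widest in both lines. Its spacing was uneven, with an SD of 124.8% of the mean in the control and 128.9% in PEG1.

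**Figure D2:**
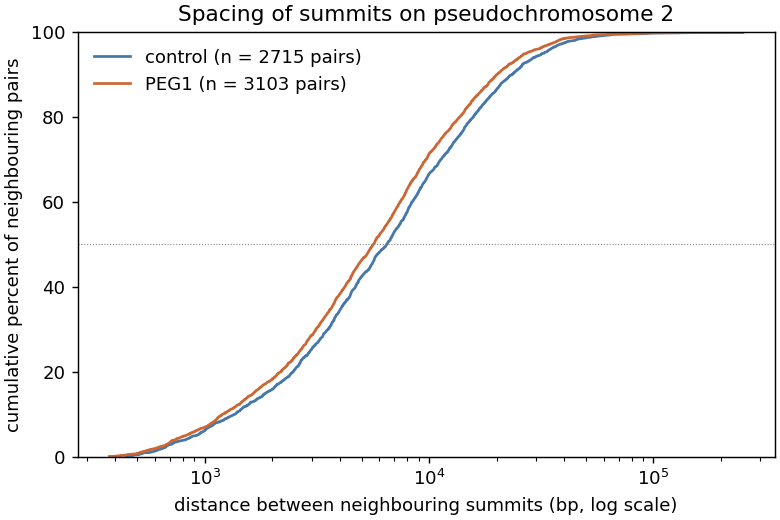
Cumulative percent of neighbouring summit pairs against their distance (bp, log scale) for the control in blue and PEG1 in orange; the dotted line marks the median. The PEG1 curve lies to the left of the control curve over most of the range, with medians of 5639 and 6482 bp.

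Distances over 20 kb made up 13.5% of the control distances and 10.02% of those in PEG1, but covered 44.3% and 37.2% of the marked span. Distances under 1 kb made up 6.15% and 6.90%. No neighbouring summits were closer than 444 bp in the control or 376 bp in PEG1. The closest control pair lay at 10473597 and 10474041, and PEG1 had 1 summit there, 23 bp from the right member. The closest PEG1 pair lay at 17917102 and 17917478, and no control summit was found within 150 bp of that stretch. The next closest pairs were 460 and 462 bp apart in the control and 392 and 402 bp apart in PEG1.

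The tightest run of 10 successive control summits spanned 15.6 kb, from 2608674 to 2624251 within the first dense stretch, and held 9 PEG1 summits. The tightest PEG1 run spanned 13.7 kb, from 25248926 to 25262595 within the last dense stretch, and held 9 control summits. In each run 8 of the 10 summits were matched within 150 bp by the other line. Their scores ran from 4.03 to 43.8 in the control run and from 3.03 to 35.6 in the PEG1 run, so these runs mixed weak and strong summits.

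Long stretches were empty in both lines at once. Beside the 303.9 kb before the first summit, the longest ran for 250.4 kb between 336907 and 587326. The next ran for 154.8 kb from 16305463 to 16460216, for 133.4 kb from 23769365 to 23902781 and for 130.5 kb from 21858958 to 21989464. Some edges were shared and others were not. At the stretch of 250.4 kb the summits of the lines differed by 422 bp on the left and 11 bp on the right, and at that of 154.8 kb by 44 and 3 bp. At that of 130.5 kb they were on the same base on the left and 8690 bp apart on the right. At 23769365 the last summit before the stretch was a PEG1 summit, and the last control summit lay 15984 bp earlier. In all, 26 stretches between summits of either line exceeded 50 kb, and 10 of them began between 15 and 20 Mb, against 1 in the first 5 Mb.

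Most summits had a summit of the other line at nearly the same position. Within 150 bp lay 2178 summits, 80.2% of the control (95% Wilson interval 78.7 to 81.6) and 70.2% of the PEG1 list (68.5 to 71.8). Over all B. rapa summits the shares were 79.1% and 69.5%, so pseudochromosome 2 lay close to the background in both directions. The difference between the lines restates the longer PEG1 list, because the matched summits were as many seen from either side. A limit of 50 bp gave 57.8% and 50.6%, and a limit of 2000 bp gave 97.8% and 88.8%. The median distance to the nearest summit of the other line was 39 bp from a control summit and 49.5 bp from a PEG1 summit.

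The offsets of paired summits were small and evenly spread to both sides. Among 2503 pairs of mutually nearest summits within 500 bp the median absolute offset was 35 bp, with quartiles of 14 and 78 bp. The PEG1 summit lay at the higher coordinate in 1187 pairs, at the lower in 1275 and on the same base in 41. The median signed offset, PEG1 minus control, was -1 bp. Offsets of at most 20 bp made up 34.7% of the pairs and offsets over 100 bp made up 19.8%. Per 20 bp the pairs fell from 821 below 20 bp to 49 at 140 to 159 bp, were 50 and 43 in the following 2 bins, and then fell to 34 and 22.

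**Figure D3:**
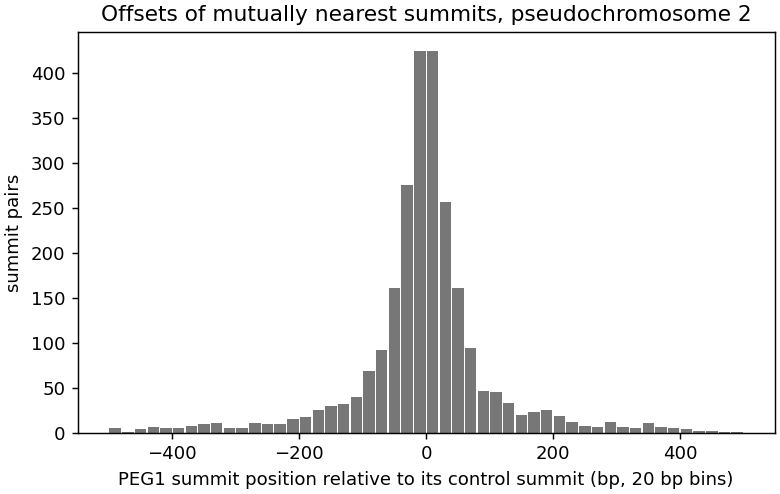
Number of mutually nearest summit pairs on pseudochromosome 2 by the position of the PEG1 summit relative to its control summit (bp, bins of 20 bp). The distribution is centred near 0, with 1187 pairs to the right and 1275 to the left.

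Strong summits were placed more alike than weak ones. Divided into 4 classes by control score, the class with the lowest control scores (1.33 to 8.61) had a median offset of 53 bp (interval 49 to 60) and that with the highest (24.005 to 107.2) a median of 25 bp (22 to 28). Offsets over 100 bp made up 32.7% of the former and 10.9% of the latter. The classes between had medians of 33 and 32 bp, so most of the difference lay between the class with the lowest scores and the others.

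The strongest summit of the pseudochromosome was the same in both lines, at 17186009 (control, score 107.2) and 17185973 (PEG1, 137.1). It stood 3rd in the whole B. rapa control list and 1st in the PEG1 list. The second strongest was also common, at 8834009 (control, 101.8) and 8834012 (PEG1, 107.3). Further strong control summits were at 8387914 (96.3), 8917937 (95.5) and 23326388 (93.4), and their PEG1 counterparts were 2 to 9 bp away and stood 9th, 20th and 6th among the PEG1 summits of the pseudochromosome. Further strong PEG1 summits were at 1803969 (107.2), 27305106 (96.4) and 24906972 (90.8), with control counterparts 2 to 3 bp away in places 6, 82 and 8. Of the 8 loci, 3 lay between 8000001 and 9000000, outside the dense stretches.

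Scores depend on depth, so matched summits were compared by percentile rank within each line's summits on the pseudochromosome, with 100 as the best. Over 2178 matched pairs the Spearman correlation of the scores was 0.83, a description of pairs that share their sequence. The ranks differed by a median of 9.71 points, by at most 10 points in 50.96% of the pairs and by over 25 points in 13.7%. Of 621 matched control summits in the best 25% by rank, 485 were in the best 25% of PEG1 too, or 78.1%, and 1 was in its weakest 25%. The ranks of matched summits were a median of 3.97 points higher in PEG1, whose list held more unmatched summits of low score.

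**Figure D4:**
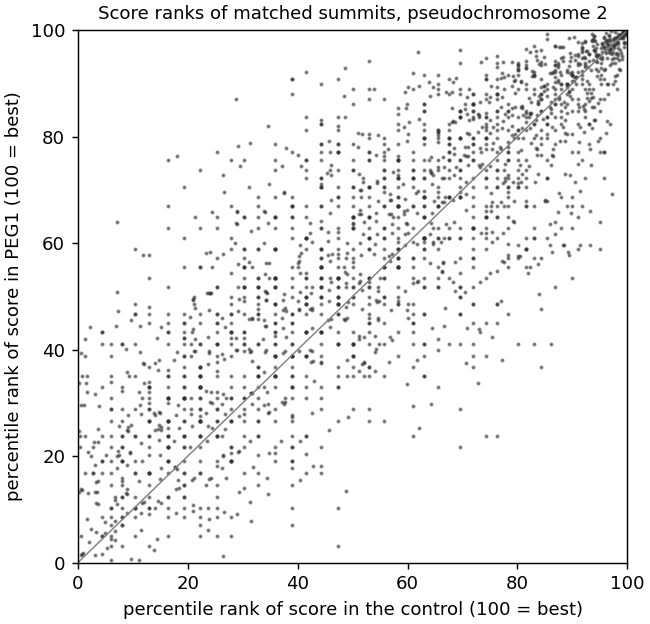
Percentile rank of the score in PEG1 against that in the control for each of 2178 matched summits (100 = best), with the line of equal rank in grey. Points crowd along the line at the upper right and scatter more widely at low and middle ranks; columns of points are summits with equal scores.

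A few summits moved far in rank. The largest rises from control to PEG1 were at 23267852 in the control, paired with 23267712 in PEG1 (rank 16.4 to 75.5), at 10165540 and 10165677 (18.1 to 76.4), and at 6187315 and 6187293 (28.7 to 87.0). The largest falls were at 6447793 and 6447836 (76.2 to 23.9), at 2257451 and 2257423 (74.2 to 23.9), and at 13229744 and 13229739 (69.6 to 21.7). In all, 11 pairs rose and 2 fell by over 50 points. These counts include the general shift, a median of 3.97 points higher in PEG1 over all matched pairs. The first and second of the rises were between summits 140 and 137 bp apart, near the limit of matching.

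Summits without a counterpart in the other line were mostly weak. Over 500 bp from any summit of the other line stood 207 control summits, 7.62% (6.68 to 8.68), and 587 PEG1 summits, 18.9% (17.6 to 20.3). The background over all B. rapa summits was 7.76% and 18.7%, so neither count set the pseudochromosome apart. The median score of these summits was 5.20 in the control and 6.28 in PEG1, against 15.3 and 22.7 for the other summits of each line. Above the median score of their line stood 28 of the control and 41 of the PEG1 summits.

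The share without a counterpart fell steeply with score. In the lowest decile of the scores it was 31.8% in the control (26.8 to 37.3) and 69.3% in PEG1 (64.1 to 73.95). In the fifth decile it was 3.40% (1.86 to 6.15) and 5.90% (3.81 to 9.03). In the highest decile it was 0% of 264 control summits (0 to 1.43) and 0.329% of 304 PEG1 summits (0.0581 to 1.84). The intervals of the lines were apart in the 4 lowest deciles and overlapped in the 6 highest. Control summits had the longer list to match, so the gap between the lines among weak summits cannot be told apart from list length.

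**Figure D5:**
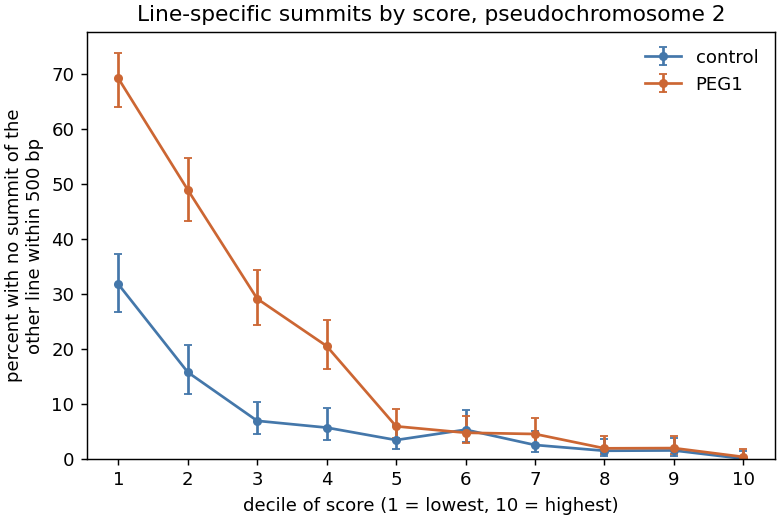
Percent of summits over 500 bp from any summit of the other line, by decile of score (1 = lowest), with 95% Wilson intervals for counting error. PEG1 in orange starts at 69.3% and the control in blue at 31.8%, and from the fifth decile on their intervals overlap.

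The 5 strongest summits without a counterpart in each line stood 502 to 1229 bp from a summit of the other line. The best in the control, at 8685038 (score 32.9), and the best in PEG1, at 8685618 (score 51.96), were each other's nearest summits, 580 bp apart. Likewise the second in the control, at 15884103 (32.6), and the fifth in PEG1, at 15883518 (37.5), lay 585 bp apart. The remaining control summits, at 17472467 (29.7), 14377715 (26.8) and 20436126 (24.9), had a PEG1 summit 1229, 683 and 744 bp away. The remaining PEG1 summits, at 12428720 (40.5), 25870778 (38.8) and 22875437 (38.5), had a control summit 502, 638 and 842 bp away. All 5 of the PEG1 summits and 2 of the control summits were mutually nearest to the summit of the other line. For the other 3 control summits the PEG1 summit lay nearer to another control summit, 6, 18 and 98 bp away.

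Along the sequence, summits without a counterpart rose in number with the shared summits (correlation over windows 0.49 in the control and 0.70 in PEG1). Per window there were 0 to 9 in the control, with a median of 4, and 1 to 21 in PEG1, with a median of 11. The most were found from 6000001 to 6500000 and from 24500001 to 25000000 in the control, with 9 in each, and from 25000001 to 25500000 in PEG1, all of them dense windows. Their share of the summits varied little with density: in the 19 windows with the fewest summits it was 8.60% in the control (6.65 to 11.1) and 19.6% in PEG1 (16.8 to 22.6), and in the 19 with the most 7.78% (6.40 to 9.43) and 18.9% (16.9 to 21.02).

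PEG1's share of the summits of both lines was nearly constant along the sequence. Over the full windows it was 53.3%, and in the 54 windows with at least 50 summits it ranged from 46.8 to 57.1% with an SD of 1.66 points. Independent counts of this size would have given an SD of 5.03 points; most summits were shared by the lines, so their counts are not independent. The highest shares were from 27500001 to 28000000 (56 PEG1 and 42 control summits), from 7000001 to 7500000 (63 and 48) and, with equal shares of 55.6%, from 19500001 to 20000000 (40 and 32) and from 26500001 to 27000000 (50 and 40). Low shares after the lowest were from 25500001 to 26000000 (52 and 51) and from 500001 to 1000000 (46 and 44).

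The lowest share was that of the window from 23500001 to 24000000, in which PEG1 had 29 summits and the control 33, a share of 46.8% (33.98 to 59.9). Both lines had 23 matched summits there. The control had 7 summits with no counterpart and PEG1 had 3. The control surplus lay mainly from 23600001 to 23700000, with 9 control and 6 PEG1 summits. Of the 7 control summits, 5 scored below 8, and the best, at 23617608 (score 17.8), lay 553 bp from a PEG1 summit. The run at 23567498, 23600815 and 23607659 was the sole place on the pseudochromosome where 3 successive control summits had no counterpart, with scores from 4.03 to 7.75.

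Median scores differed little with density. In the dense windows the median was 13.6 in the control (interval 12.9 to 14.4) and 16.6 in PEG1 (15.3 to 18.5). In the windows between the thresholds it was 14.8 (14.4 to 15.3) and 19.3 (18.2 to 20.1). The 2 sparse windows, with 26 and 30 summits, had medians of 17.3 and 18.9, with intervals of 8.79 to 24.9 and 13.02 to 33.6 that span the other values. In windows of 200 kb the dense windows had the higher median, by 2.51 in the control and 0.586 in PEG1. In windows of 1000 kb the difference, dense minus sparse, was -4.94 in the control and -6.73 in PEG1. Between the 19 windows with the most and the 19 with the fewest summits it was -1.61 and -1.63. The sign thus depended on the window length, and no direction is given.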

How the data were processed

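Summit lists of 1 H3K4me3 library per line were used, each with a position and a score per summit. Per the submitters' processing notes, the authors called peaks with MACS2 version 2.0. No source used here names the aligner, the use of the no-antibody library or any filter. The deposited scores are −log10 values of significance; p or q is not stated, and the lowest in each list lay just above 1.301, the −log10 of 0.05. Scores often tied: 790 distinct values occurred among the control summits of pseudochromosome 2 and 990 among those of PEG1. Peak names of the control B. rapa list carry another prefix than those of the PEG1 list, and whether settings differed is not stated.

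From the lists were computed window counts (500 kb), spacing, nearest distances, matches (150 bp), summits without a counterpart (500 bp) and percentile ranks. Shares carry 95% Wilson intervals, window shares and ratios exact ones, medians order-statistic ones. Summits on a list are not replicates, and neighbouring summits are not independent. No p-value is given. Named positions followed a fixed rule: the 5 best-scored summits of each line, the 5 best without a counterpart, the 5 longest empty stretches, the 5 densest and 5 sparsest windows, the 3 highest and 3 lowest window shares, the 3 largest rank rises and falls, the tightest runs of 10 and the 3 closest pairs. Members, lists and rules were chosen with earlier results of these data known. Nearest distances, mutually nearest pairs, window counts and the joining of summits were tested on made lists with known answers. Most of these lists were built from thinned control summits of pseudochromosome 2. The other measures were not tested in this way. Figures were drawn with matplotlib 3.10.9, and values were computed with SciPy 1.17.1, pandas 2.3.3 and NumPy 2.4.6 under Python 3.11.15.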

Additional observations from a re-analysis of the deposited data

How the results depend on the processing

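Of 60 alternative values of 15 results, 27 stayed within the interval of the reported value or, for counts, within 1.5 times; 31 moved beyond it and 2 changed sign. No library could be left out, and no paired analysis was possible because each line has 1 library. Depth is unknown, which limits what can be read from weak summits. Values are given as control, then PEG1. With scores of at least 10 the ratio of summits was 1.247 and the median spacing 9637 and 8205 bp. The percent matched was then 84.8 and 68.1, and the SD of the window share 2.33 points. That limit kept 66.0% of the control and 72.0% of the PEG1 summits. Because scores depend on depth, it does not treat the lists alike, and the ratio and matched shares carry this difference. With scores at or above the list median the spacing was 12914.5 and 10906.5 bp; leaving out summits widens spacing by construction. The first 200 kb held 0 and 0 summits and the first 1000 kb 47 and 50. The percent matched was 57.8 and 50.6 at a limit of 50 bp, 88.5 and 77.4 at 300 bp, 92.4 and 81.1 at 500 bp, 95.99 and 85.1 at 1000 bp, and 76.8 and 76.8 with equally long lists, which forces the shares together. Summits over 1000 bp from any summit of the other line numbered 109 and 463, and those over 2000 bp away numbered 61 and 347. Over all B. rapa summits the percent matched was 96.2 and 85.9 at 1000 bp. At 2000 bp it was 97.9 and 89.6, against 97.8 and 88.8 on pseudochromosome 2. Of the summits without a counterpart at 500 bp, 28 and 43 scored no lower than the median of their line. The SD of control window counts was 38.98% of the mean in windows of 200 kb. The SD of the window share was 2.35 points over the 41 windows of 200 kb with at least 50 summits, 2.76 points with at least 20, a limit chosen after seeing the data, and 0.981 points in windows of 1000 kb. The median score of dense minus sparse windows was -3.69 and -2.26, with 2.51 and 0.586 in windows of 200 kb. In windows of 1000 kb it was -4.94 and -6.73. The cause was not tested.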

Other observations

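Summits over 5 kb from any summit of the other line numbered 32 in the control and 187 in PEG1. The best-scored of them, picked after their values were seen, were at 26783998 in the control (score 20.4, nearest PEG1 summit 11.5 kb away) and at 25389808 (27.1, 18.9 kb) and 27145794 (25.3, 13.4 kb) in PEG1. The single most remote summit of each line was weak. In the control it was at 18546372, scored 1.56 and lay 41898 bp from a PEG1 summit. In PEG1 it was at 17534428, scored 5.69 and lay 38408 bp from a control summit.

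The longest unbroken runs of matched summits were 30 successive control summits from 1483088 to 1734398 and 18 successive PEG1 summits from 4764905 to 4907380, both within or at the edge of the early dense stretches. The longest run of PEG1 summits without a counterpart held 4, from 3886589 to 3901171, with scores of 3.52 to 11.6. PEG1 had 20 runs of 3 or more and the control had 1. The summits without a counterpart made up 18.9% of the PEG1 list and 7.62% of the control list. Whether these runs exceed what such shares give was not tested.

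Summits with a close neighbour of their own line had lower scores, and a larger share of them lacked a counterpart. In the 25% of the summits with the nearest neighbours (at most 1735 bp in the control and 1506 bp in PEG1) the median score was 11.3 in the control (interval 10.5 to 12.7) and 13.5 in PEG1 (12.04 to 15.3), and 15.5% (12.9 to 18.4) and 26.6% (23.7 to 29.9) had no counterpart. In the 25% with the most distant neighbours the medians were 15.3 (13.6 to 16.1) and 20.7 (18.7 to 22.7), and 4.72% (3.36 to 6.59) and 16.5% (14.05 to 19.3) had no counterpart. Summits with no neighbour within 20 kb on either side numbered 50 in the control and 35 in PEG1. Matched within 150 bp were 41 of the former, 82% (69.2 to 90.2), and 29 of the latter, 82.9% (67.3 to 91.9). The shares for the other summits were 80.2% and 70.0%, and each lay within the interval for the isolated summits of that line.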
